A study of Mus musculus with 2 samples.

Results

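The 8 genes described here encode phospholipases, the enzymes that cut membrane phospholipids: Plaat3, Plb1, Pla2g4a, Pla2g6, Pla2g7, Pla2g15, Pld1 and Pld2. In the same order their Entrez gene identifiers are 225845, 665270, 18783, 53357, 27226, 192654, 18805 and 18806. They were taken by name from the platform annotation, and all 8 were measured, with 9 probes between them, out of 13709 genes with 15048 probes. They were compared between 2 preparations of the mouse lens, with 1 array of poly(A) RNA for each. The cortex sample is the outer fiber cells, and the epithelium sample is the lens capsule with the epithelial cells that stick to it. Both were dissected with forceps from lenses of 5 mice aged 13 days. The labels name no strain, sex, altered gene or treatment, and whether lenses were pooled is not stated in them. A description attached to both samples mentions fetal liver, whereas the titles, the source names and the design text of the series all name the lens.

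A phospholipase is named for the bond it cuts. Type A releases a fatty acid and leaves a lysophospholipid, whereas type B removes both fatty acids. Type D removes the head group and leaves phosphatidic acid. Lens fiber cells lose their nuclei, mitochondria and endoplasmic reticulum as they mature, so that the tissue becomes clear. In mouse and zebrafish this clearance is known to need phospholipases of the PLAAT family, small membrane-bound enzymes that move to damaged organelle membranes, and Plaat3 is the family member tied to it in the mouse lens. The other 7 genes are phospholipases of other families, which are known chiefly for lipid signalling, lysosomal turnover or membrane repair.

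The labels were checked on marker genes. In cortex, 9 of 11 lens fiber markers measured were higher by 3-fold or more, and in epithelium 7 of 8 lens epithelium markers were. E-cadherin (Cdh1) and Foxe3 were at the floor in cortex. Of 6 liver and erythroid markers measured, Apoa1, Serpina1a and Ttr were at the floor on both arrays, and Afp (0.660 in cortex and 0.680 in epithelium), Apoa2 (0.708 and 0.888) and Hba-a1 (1.39 and 1.79) differed by less than 3-fold. All 11 fiber markers were above the floor in the epithelium sample as well. Both samples are bulk tissue, so fewer cells of a type and less RNA per cell cannot be told apart.

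Values are normalized intensities in units close to each array's median (0.998 on both arrays), and the floor is 0.499, below which values were raised to it. A gene counts as higher in a sample, or as passing the limit there, if its value was 3 or more times the other and at or above that array's median. With 1 array for each sample no test across samples is possible, and no value has a replicate. The only spread available is that between different probes of a gene, and it does not measure variation between arrays or animals. It was taken over 558 genes with 2 or more probes measured above the floor in each sample. The log2 difference had a pooled SD between probes of 1.10 and a median SD of 0.59.

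The promoters of the 4 genes with the largest differences are shown first, because 3 of them (Plaat3, Pla2g7 and Plb1) were higher in cortex together and Pla2g4a was lower. Each is the 250 bases before the first start site that RefSeq lists for the gene, on assembly GRCm38.p6, with matches to the motifs searched in capitals. Plaat3 is at chr19:7557209-7557458 on the + strand, Pla2g7 at chr17:43568201-43568450 on the + strand, Plb1 at chr5:32238834-32239083 on the + strand and Pla2g4a at chr1:149961291-149961540 on the - strand. RefSeq lists 2 start sites for each of Plaat3, Plb1 and Pla2g4a and 1 for Pla2g7.
Plaat3: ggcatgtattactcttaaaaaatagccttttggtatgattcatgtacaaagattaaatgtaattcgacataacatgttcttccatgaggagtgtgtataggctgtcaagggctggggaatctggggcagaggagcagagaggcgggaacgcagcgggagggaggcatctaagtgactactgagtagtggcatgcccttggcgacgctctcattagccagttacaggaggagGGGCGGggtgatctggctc
Pla2g7: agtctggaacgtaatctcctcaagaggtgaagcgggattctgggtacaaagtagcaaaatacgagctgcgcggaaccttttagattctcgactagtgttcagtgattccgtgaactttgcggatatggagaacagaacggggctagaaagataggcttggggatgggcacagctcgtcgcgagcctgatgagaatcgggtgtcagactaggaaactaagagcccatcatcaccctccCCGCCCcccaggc
Plb1: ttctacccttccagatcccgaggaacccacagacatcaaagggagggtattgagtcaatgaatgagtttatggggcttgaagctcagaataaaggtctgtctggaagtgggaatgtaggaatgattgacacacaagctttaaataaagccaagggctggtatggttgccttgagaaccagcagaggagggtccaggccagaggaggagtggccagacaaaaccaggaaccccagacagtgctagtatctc
Pla2g4a: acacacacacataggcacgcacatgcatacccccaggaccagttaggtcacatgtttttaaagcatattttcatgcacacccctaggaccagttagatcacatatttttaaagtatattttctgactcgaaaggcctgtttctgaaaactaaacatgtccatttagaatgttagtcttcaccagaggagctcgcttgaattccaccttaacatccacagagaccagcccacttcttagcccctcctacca
Both strands were searched for the paired heat shock element, written GAANNTTC or TTCNNGAA, for the core of the Maf recognition site, TGCTGA, for the TATA box TATAAA and for the GC box GGGCGG. The capitals in the Plaat3 sequence, which begin 19 bases before the start, and those in the Pla2g7 sequence, which begin 13 bases before it, are GC boxes. The Plb1 and Pla2g4a sequences hold none of these letters. A GC box was found before 5 of the 8 genes and in 32.9% of 27025 promoter windows of the same length. A heat shock element was found before 1 of the 8, Pla2g6, at 115 bases before its start, and in 12.9% of all windows. The Maf core and the TATA box were found before none of the 8, against 15.8% and 13.0% of all windows. The share of G and C was 52.8% before Pla2g7, 50.0% before Plaat3, 49.2% before Plb1 and 43.2% before Pla2g4a, beside a median of 52.0% over all windows. CpG pairs numbered 14 before Pla2g7, 7 before Plaat3, 3 before Pla2g4a and 1 before Plb1, beside a median of 6. A match is a run of letters and was not tested as a binding site.

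The phospholipase genes did not move as a block. Plaat3, Plb1 and Pla2g7, 3 of the 8, were brighter in cortex by 3-fold or more, Pla2g4a and Pld1, 2 of the 8, were brighter in epithelium by as much, and 3 differed by less than 3-fold (Pla2g6, Pla2g15 and Pld2). Over all 13709 genes, 9.41% passed the same limit in cortex and 8.17% in epithelium, which is 17.6% in either direction. All 8 had both values above the floor, and among the 8351 genes of that kind the shares were 13.2% and 10.2%. The median log2 difference, cortex minus epithelium, was 0.98 over the 8 genes and 0.03 over the 8351. A median of 8 such unlike values describes none of them well, since they ran from -5.21 to 6.29.

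**Figure D1:**
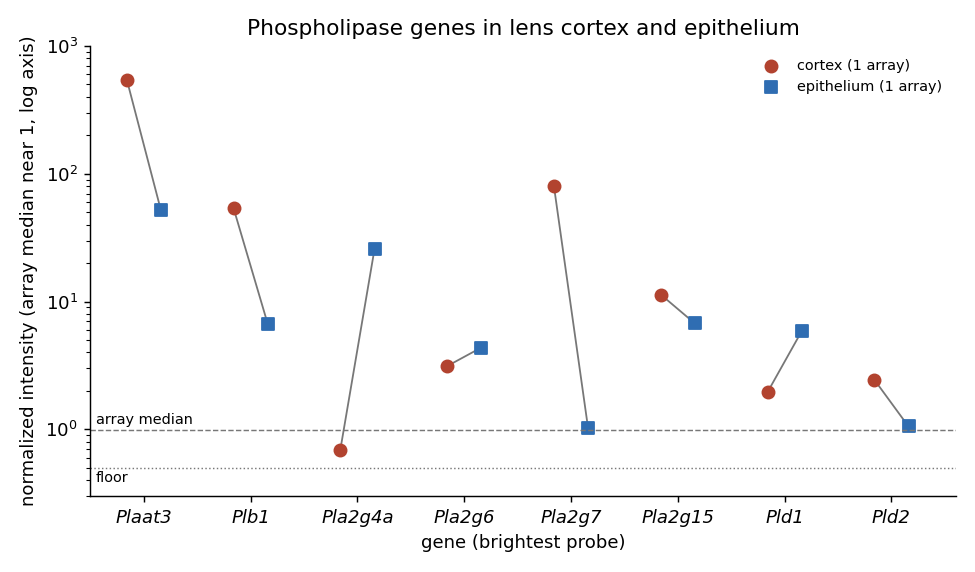
Normalized intensity of the brightest probe of each of the 8 phospholipase genes on the cortex array (circles) and the epithelium array (squares), on a log axis, with 1 array for each, so there are no error bars. Plaat3, Plb1 and Pla2g7 are brighter in cortex, Pla2g4a is at 25.8 in epithelium and below the array median in cortex, and Pla2g6 and Pla2g15 have their 2 points close together.

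Plaat3, the organelle-degrading phospholipase of the PLAAT family, stood at 546 in cortex and 51.7 in epithelium. Its probe was among the brightest on both arrays, above 99.6% of cortex probes and 97.3% of epithelium probes. Plaat3 was therefore well above the array median in the epithelium sample too, and the 2 samples differed in degree. All 11 fiber markers measured were also above the floor in that sample. Whether its Plaat3 signal came from epithelial or fiber cells was not tested. The difference was 10.6-fold, or 3.40 on the log2 scale, and ranked 215 of the same 8351 genes. The other PLAAT genes of the mouse were near background on these arrays. Plaat1 stood at 0.733 in cortex and below the floor, at 0.344, in epithelium, and Plaat5 was below the floor on both arrays (0.130 and 0.0753). Of the 3 PLAAT genes, Plaat3 alone was above the array median in either sample. Hsf4, a heat shock factor known to take part in organelle loss in the lens, stood at 139 in cortex and 5.46 in epithelium. Dnase2b, which encodes the acid DNase that digests fiber cell DNA, stood at 28.4 and 3.29. Of the 8350 others, 49 had a log2 difference within 0.1 of that of Plaat3, and the nearest were Gata5, Pax6os1 and Washc3 (3.40 each). With 2 samples such likeness rests on 1 number per gene.

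Plb1 encodes phospholipase B1, a membrane enzyme known from gut and skin that removes both fatty acids of a phospholipid. It stood at 53.7 in cortex and 6.68 in epithelium, and both values were above the array median. The difference was 8.04-fold (3.01 on the log2 scale) and ranked 321 of 8351. The genes with the nearest differences were Gltp (3.01), a glycolipid transfer protein gene, Ap2b1 (3.0), a clathrin adaptor gene, and 4930488L21Rik (3.02). Its relatives by name, Plbd1 and Plbd2, were dimmer in cortex than in epithelium. Plbd1 stood at 0.122 in cortex, under the floor, and 0.940 in epithelium, and Plbd2 at 0.893 and 1.66, while a second Plbd2 probe lay under the floor in each sample. The Plbd1 difference is therefore a bound, at least 1.88-fold, and that of Plbd2 was 1.85-fold.

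Pla2g7 encodes the secreted enzyme that inactivates platelet-activating factor and cuts oxidized phospholipids. It had the largest difference of the 8 genes, with 79.7 in cortex and 1.02 in epithelium. The epithelium value lay above 50.3% of its probes, while the cortex value was above 97.0%. The difference was 78.4-fold, or 6.29 on the log2 scale, and ranked 14 of 8351. Macrophages are a known source of Pla2g7 RNA, so their markers were examined beside it. Of 10 macrophage markers measured, 9 were at the floor on both arrays, among them Ptprc, Adgre1, Aif1, Tyrobp and the C1q genes. The tenth, Cd14, stood at 0.788 in cortex and below the floor in epithelium. The summed intensity of the 10 was 3.35 in cortex and 1.66 in epithelium. Cd68 and Csf1r, also on the marker list, were not among the genes measured. Which cells gave the Pla2g7 signal was not tested. Of the other genes for enzymes that act on platelet-activating factor, the intracellular hydrolase gene Pafah2 went the other way, at 0.149 in cortex and 1.85 in epithelium, a bound of at least 3.71-fold. The subunit genes Pafah1b1 (0.44), Pafah1b2 (0.62) and Pafah1b3 (-0.15) had log2 differences under the limit. With the floor at the array median Pafah2 did not reach 3-fold.

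Pla2g4a encodes cytosolic phospholipase A2 alpha, the calcium-dependent enzyme that releases arachidonic acid for prostaglandins and leukotrienes. It was brighter in epithelium, at 0.696 in cortex and 25.8 in epithelium. Its cortex value lay between the floor and the array median, above 42.8% of that array's probes. The difference was 37.1-fold (-5.21 on the log2 scale) and ranked 10 of 8351 counted from the epithelium side. Raising the floor to the array median makes it at least 25.9-fold. Its measured relatives had smaller differences. Pla2g4d stood at 50.7 in cortex and 5.15 in epithelium, or 9.83-fold higher in the cortex sample. Pla2g4e stood at 8.51 and 7.51, and Pla2g4b at 1.86 and 2.78, with a second probe at 0.819 and 2.09.

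**Figure D2:**
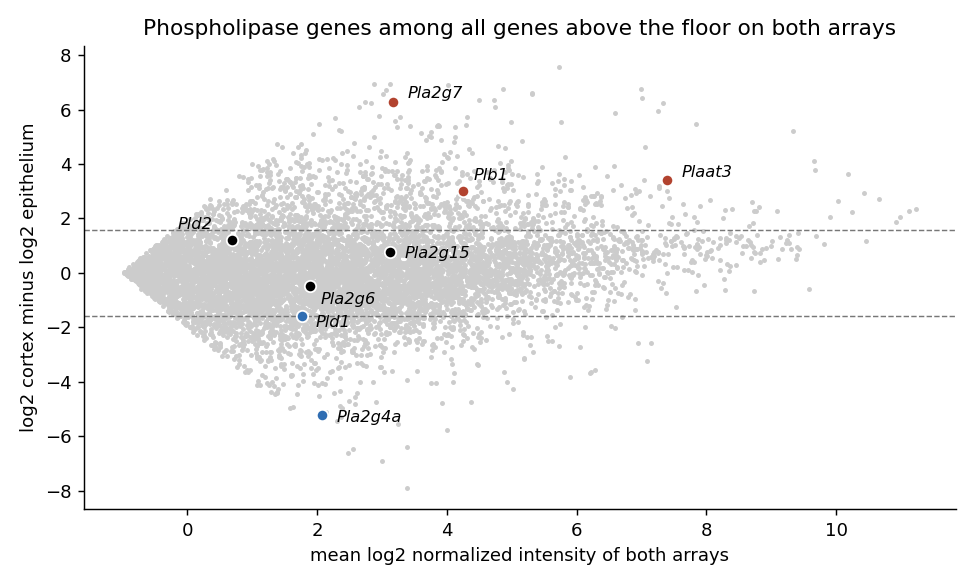
Log2 difference between cortex and epithelium against the mean log2 intensity of both arrays, for the 8351 genes with both values above the floor (grey), with the 8 phospholipase genes marked. Dashed lines stand at 3-fold. Pla2g7, Plaat3 and Plb1 lie above the upper line at 6.29, 3.40 and 3.01, Pla2g4a lies at -5.21 and Pld1 on the lower line.

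The remaining phospholipases A differed little. Pla2g6, the calcium-independent enzyme of membrane upkeep and mitochondria, stood at 3.13 in cortex and 4.37 in epithelium. That is 1.40-fold brighter in epithelium (-0.48 on the log2 scale), less than the pooled SD between probes. Pla2g15, the lysosomal phospholipase A2, stood at 11.4 in cortex and 6.74 in epithelium, which is 1.68-fold (0.75) and likewise below that SD. A second Pla2g15 probe was at the floor on both arrays, with values of 0.174 and 0.180. It was the only second probe among the 8 genes, so each difference of 3-fold or more among them rests on 1 probe. With ribosomal protein genes centred on 0, the Pla2g15 difference had the opposite sign, at -0.16.

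The phospholipases D make phosphatidic acid, and Pld1 and Pld2 differed in opposite directions. Pld1, the form of endosomes and secretory vesicles, stood at 1.96 in cortex and 5.87 in epithelium, or 3.0-fold brighter there (-1.59 on the log2 scale), which lies at the limit. Pld2, the form of the plasma membrane, stood at 2.45 in cortex and 1.05 in epithelium, which is 2.32-fold brighter in cortex (1.21) and under the limit. Pld2 in epithelium lay near the array median, above 50.8% of its probes. After loess on brightness Pld1 differed by 2.71-fold and no longer passed. Of the proteins known to switch on phospholipase D, 13 genes were measured, with a median log2 difference of 0.09. Beside 8.17% and 9.41% of all genes, none passed the limit in epithelium and 3 passed it in cortex. These were the protein kinase C gene Prkca (9.53 against 0.895, 10.6-fold), the small GTPase gene Rala (26.7 against 5.99, 4.45-fold) and the phosphoinositide kinase gene Pip5k1b (1.89 against a value at the floor, at least 3.79-fold). The ARF genes, whose GTPases activate both enzymes, differed by less than 3-fold, with Arf1 at 73.1 in cortex and 52.5 in epithelium, Arf6 at 1.51 and 1.68, and Arf4 at 21.4 and 47.0. With the floor at the array median Pip5k1b did not pass. Rac1 stood at 62.8 in cortex and 22.9 in epithelium (2.74-fold), while its second probe gave 49.5 and 13.1 (3.78-fold). With probe means 4 of the 13 were higher in cortex. With ribosomal protein genes centred on 0, 1 of the 13 was higher in cortex and 2 in epithelium, beside 4.32% and 20% of all genes.

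The directions of the 5 genes past the limit were the same in each of the 4 scalings tried. On the log2 scale, Plaat3 ranged from 2.45 to 3.40, Plb1 from 2.10 to 3.01, Pla2g7 from 5.38 to 6.32 and Pla2g4a from -6.12 to -5.07. The lowest Plaat3 value, from loess on brightness, is a 5.46-fold difference. Pld1 ranged from -2.50 to -1.44. Among the others, Pld2 stayed above 0 (0.30 to 1.42) and Pla2g6 below it (-1.39 to -0.34). The median difference of genes with both values above the floor was 0.03 with the deposited scaling (8351 genes), -0.11 after quantile normalization (8325 genes) and -0.88 with ribosomal protein genes at 0 (8351 genes), so that the last of these shifts genes as a whole towards epithelium.

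**Figure D3:**
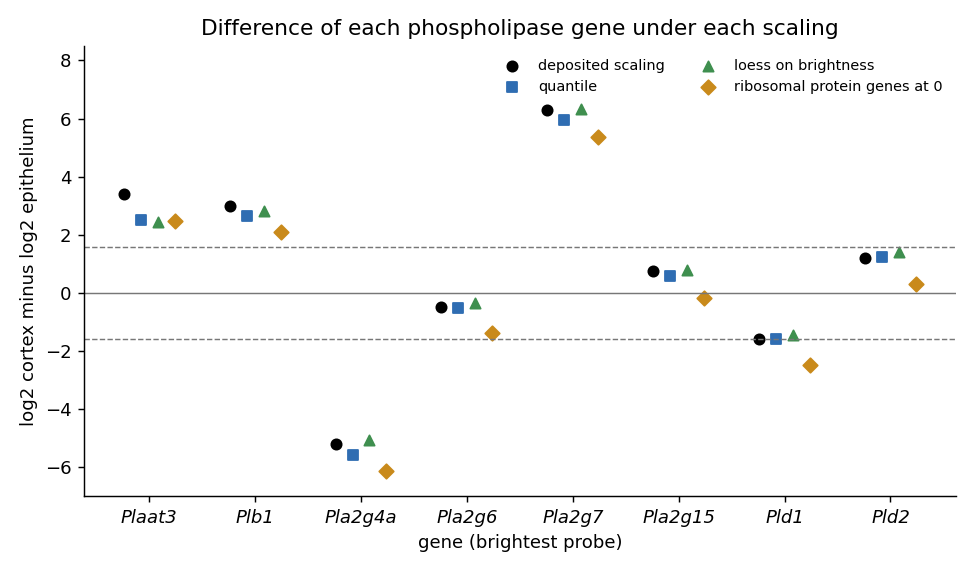
Log2 difference between cortex and epithelium of each of the 8 phospholipase genes with the deposited scaling and with 3 other scalings, 1 point per scaling. Dashed lines stand at 3-fold, and the solid line at 0. Plaat3, Plb1, Pla2g7 and Pla2g4a stay beyond 3-fold in each, Pld1 crosses the lower line and Pla2g15 crosses 0.

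The other genes of phospholipid breakdown and synthesis were examined as lists. Across them, 137 further genes were measured, of which 14 passed the 3-fold limit in cortex and 14 in epithelium. That is 10.2% each way, close to the shares over all genes, and the median difference was 0. With ribosomal protein genes centred on 0 the counts were 5 and 26, and the shares over all genes were 4.32% and 20%.

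Secreted phospholipases A2, small calcium-dependent enzymes, were mostly near background. Of 9 measured, 5 were at the floor on both arrays, 1 was higher in cortex and 1 in epithelium. Pla2g2d stood at 23.3 in cortex and 5.06 in epithelium (4.61-fold), and its second probe gave 4.85 and 1.08 (4.48-fold). Pla2g5 stood at 15.5 in cortex and 48.6 in epithelium (3.14-fold), and its second probe gave 0.879 and 3.43 (3.91-fold). These 2 genes thus had opposite differences that their second probes shared. Pla2g2d no longer passed with ribosomal protein genes centred on 0. Of 21 other phospholipases A and B, 2 were higher in cortex, Pla2g4d and the lipid droplet lipase gene Pnpla3 (54.7 against 13.9, 3.93-fold), and 1 in epithelium, Pafah2. Pnpla3 did not pass under quantile normalization or with ribosomal protein genes at 0. Of 11 phospholipase C genes, none passed in either direction, and their median was 0.12. Beside these list counts, 9.41% of all genes passed in cortex and 8.17% in epithelium. The largest difference among the phospholipase C genes was that of Plcg1 (1.33 against 0.564, 1.24 on the log2 scale), named after its value was seen.

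Enzymes that handle the products of phospholipases had genes past the limit in both directions. Both lists below had 12.5% each way, near the shares over all genes, 9.41% in cortex and 8.17% in epithelium. Of 8 other phospholipase D and phosphodiesterase genes, the lysophospholipase D gene Gdpd3 was higher in cortex (92.1 against 15.9, 5.81-fold) and Gdpd2 in epithelium (3.61 against 0.780, 4.62-fold). Of 16 genes that cut or re-acylate lysophospholipids, 2 were higher in each sample. Mboat1, an acyltransferase that turns lysophospholipids back into phospholipids, stood at 370 in cortex and 24.7 in epithelium (15.0-fold), and Agpat5 at 24.8 and 7.69 (3.22-fold). Agpat4 (5.91-fold) and the lipase gene Abhd6 (at least 5.92-fold) were higher in epithelium. Agpat5 did not pass under quantile normalization or with ribosomal protein genes at 0, and Abhd6 did not with the floor at the array median.

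Phosphatidic acid, the product of phospholipase D, is turned into diacylglycerol by lipins and lipid phosphate phosphatases. Lpin1, of the first kind, stood at 75.5 in cortex and 2.29 in epithelium (32.9-fold), and its second, dimmer probe gave 1.83 and 0.591 (3.09-fold). Of the second kind, Plpp1 stood at 2.04 in cortex and 20.2 in epithelium (9.86-fold), and Plpp2 was at the floor in cortex and 2.25 in epithelium (at least 4.52-fold). Plpp3, with 3 probes, differed by less than 3-fold on the brightest. With the diacylglycerol kinase gene Dgkz (4.01-fold), 3 of 7 genes in the list of kinases and lipid phosphate phosphatases were higher in epithelium and none in cortex. That list does not hold the lipins, which were counted under phospholipid synthesis. Over all genes the shares were 8.17% in epithelium and 9.41% in cortex. With ribosomal protein genes centred on 0 the list again had 3 and 0, beside 20% and 4.32% of all genes. With the floor at the array median Plpp2 did not pass. The median of the list was 0, and 4 of the 7 were at the floor on at least 1 array. Of 17 phospholipid synthesis genes, 2 were higher in cortex, Lpin1 and the phosphatidylcholine synthesis gene Chpt1 (3.39-fold), and 2 in epithelium, the choline kinase gene Chkb (4.51-fold) and Cept1 (at least 3.17-fold). Of 11 sphingomyelinase and ceramidase genes, Acer1 was higher in cortex (3.06-fold) and Smpd2 in epithelium (4.93-fold). Acer1 did not pass under quantile normalization or with ribosomal protein genes at 0, and Chpt1 did not with ribosomal protein genes at 0. Cept1 did not with the floor at the array median.

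**Figure D4:**
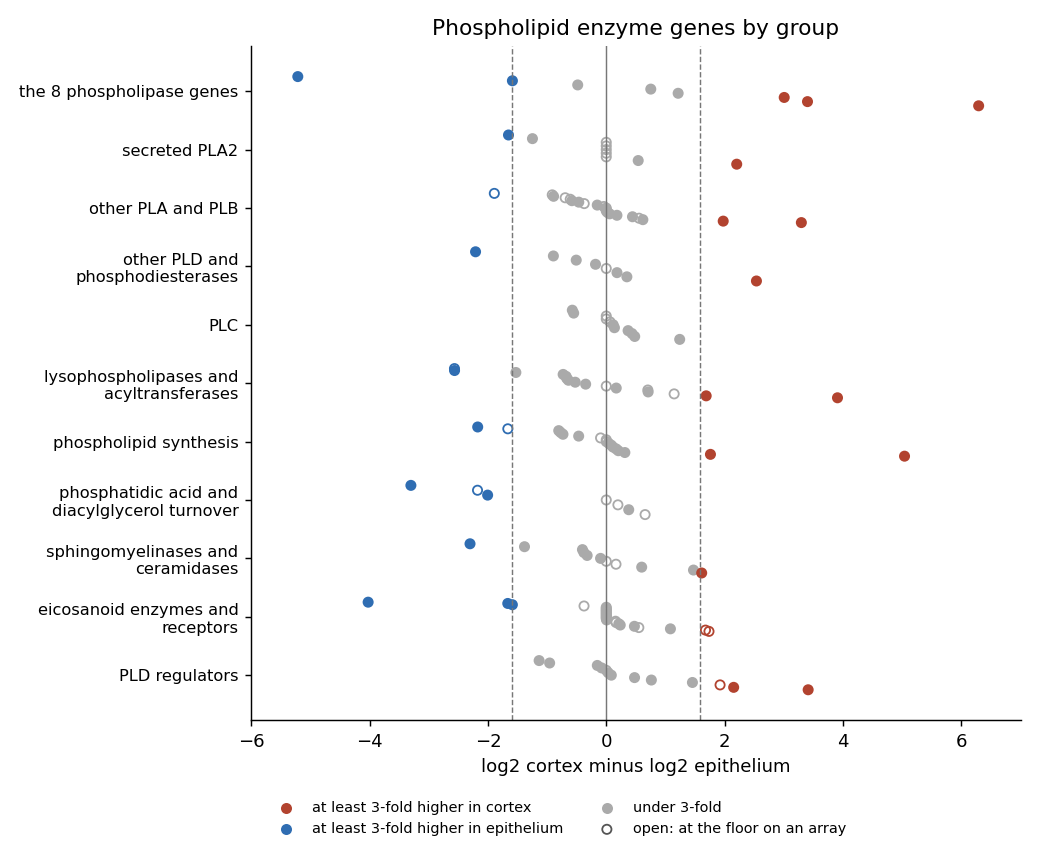
Log2 difference between cortex and epithelium for each measured gene of 11 groups of phospholipid enzymes, 1 point per gene, with open points where a value lay at the floor on an array. Most points lie between the dashed lines at 3-fold, points beyond them fall on both sides in 8 of the groups, the phospholipases C have none beyond them, the phosphatidic acid group has them on the epithelium side alone and the regulators of phospholipase D on the cortex side alone.

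Arachidonic acid released by the Pla2g4a enzyme feeds the prostaglandin and leukotriene pathways. Of 24 eicosanoid genes measured, 2 (8.33%) passed the limit in cortex and 3 (12.5%) in epithelium, beside 9.41% and 8.17% of all genes. On both arrays, 10 of the 24 were at the floor. Ptgs2, a cyclooxygenase gene next to Pla2g4a in the genome, was at the floor on both (0.323 and 0.224). The other cyclooxygenase gene, Ptgs1, and the lipoxygenase gene Alox5 were not among the genes measured. Ptgds, a prostaglandin D synthase gene, stood at 7.54 in cortex and 123 in epithelium (16.3-fold), Ptges2 at 1.45 and 4.60 (3.17-fold) and the leukotriene enzyme gene Lta4h at 3.54 and 10.6 (3.0-fold). Higher in cortex were Alox8 (at least 3.33-fold) and Ptgis (at least 3.20-fold), with 1.66 and 1.59 as their brighter values, and neither passed with the floor at the array median. After loess on brightness Ptges2 and Lta4h did not pass, which left Ptgds alone in epithelium. Ptgds is also a ciliary body marker. Of the 7 other ciliary body and pigment cell markers measured, 4 passed the limit in epithelium and 1 in cortex, and their summed intensity was 5.35 in cortex and 24.3 in epithelium. Tyr was at the floor on both arrays. The part of neighbouring tissue in the Ptgds and Pla2g4a values was not tested.

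The 8 genes lie on 8 different chromosomes. Of their 16 flanking protein-coding genes, by the order of starts in GRCm38.p6, 9 had a probe, and none of the 9 differed by 3-fold, with log2 differences from -1.24 to 1.42. Lgals12, Brinp3, Ptgs2 and Maff among them were at the floor on both arrays and could not have passed. Over all genes 17.6% passed in either direction. Plaat3 lies between Atl3 (0.587 in cortex and 1.39 in epithelium) and Lgals12 (at the floor on both). Plb1 lies between Fosl2 (0.631 in cortex and at the floor in epithelium) and Ppp1cb (5.53 and 5.39).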

How the data were processed

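Biotin-labelled RNA from 1 cortex and 1 epithelium sample was read on CodeLink mouse arrays of 1 colour, per the labels' protocols. For each of 19819 probes the deposited table gives an intensity on each array, on a linear scale with each array's median near 1. The sources used here do not give how the authors scaled it or corrected its background. Values were below 0 for 161 probes in cortex and 74 in epithelium, and missing for 87 and 97, which were left out. Values lay above the floor for 65.5% and 60.9% of probes. The 2 arrays limit the precision of every value.

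Genes were named from probes with 1 symbol in the platform annotation (15120 probes, 15064 of them in RefSeq by Entrez identifier). The floor was 0.5 of each array's median, and log2 was then taken. The probe with the highest mean log2 value stood for a gene. The 8 genes, the lists and the rules were chosen with earlier results of these data known. The genes named are the 8 with every probe, up to 4 per list at 3-fold or more with the largest difference, the 3 genes nearest in difference to Plaat3 and to Plb1, Hsf4 and Dnase2b. Relatives, marker genes, flanking genes and other list genes named beside them were chosen after their values were seen.

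Alternatives were quantile normalization, loess (span 0.3), centring on 66 ribosomal protein probes, other floors, probe means, limits of 2-fold and 5-fold and no filter on dim genes. The procedure was run on simulated data with noise smaller than the pooled SD between probes. That run does not show how often a gene past the limit here is wrong. Python 3.11.15, numpy 2.4.6, pandas 2.3.3, statsmodels 0.14.6 and matplotlib 3.10.9 were used.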

Additional observations from a re-analysis of the deposited data

How the results depend on the processing

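Of the 8 phospholipase genes, 3 were higher in cortex under each alternative except the 2-fold limit, where Pld2 made 4. The count higher in epithelium was 2, but 1 after loess on brightness and 1 with a limit of 5-fold, where Pld1 did not pass. Among the 137 further genes, 14 were higher in each sample. With ribosomal protein genes centred on 0 this became 5 in cortex and 26 in epithelium, while the shares over all genes were 4.32% and 20%. With a limit of 5-fold it became 5 and 4, beside 5.09% and 3.48% of all genes. Of the 14 genes in each direction, 5 higher in cortex and 12 higher in epithelium passed in each of the 4 scalings. Centring on ribosomal protein genes lowers the log2 differences by the same amount. It could therefore remove genes from the cortex count but none from the epithelium count, so the 5 and the 12 are not comparable. No gene named at 3-fold or more changed its sign under any alternative. No paired analysis was possible because each sample has 1 array and the result comes from no test. Signal over background limits Pla2g4a in cortex, and Pla2g7 and Pld2 in epithelium, whose values lie near the array median.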
